A study of Parasteatoda tepidariorum with 10 samples.

Results

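Chromatin accessibility at stage 1 and at stage 2 was compared in wild-type *Parasteatoda tepidariorum*, the common house spider. The comparison used 4 of the 10 libraries of the series, 2 for each stage, which were taken by their stage labels. The other 6 libraries came from stage 3, 2 of them from wild-type embryos and the rest after parental RNA interference (pRNAi) against *fuchi* or *Pt-hh*. Stage-1 embryos were collected 9 h after egg laying (AEL) and stage-2 embryos 12 h AEL. All were untreated entire embryos of the Osaka isolate, and each library was made from 200 of them. The stage-3 libraries, read below as a further measure, were made from only 40 embryos each, collected 18 h AEL. The labels gave each of the 4 libraries a source code of its own, made of a line or stock name and what reads as a day and month, so that source and stage cannot be told apart. The replicates thus differed in source, but the labels did not say whether a code stands for a mother, a brood or a stock, and p-values measure the spread between these libraries, whatever its origin. Entire embryos were used, so fewer nuclei with an open region and less opening per nucleus cannot be told apart. The study states that its own search for regions differing in accessibility among stages 1 to 3 gave no clear results.

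In the assay for transposase-accessible chromatin (ATAC-seq), a transposase cuts and tags DNA that is not covered by nucleosomes, and regions with many cuts are called as peaks. Open regions in animal genomes are mostly promoters and enhancers, where transcription factors bind. In spiders, cleavage nuclei move to the surface of a yolky egg and form a blastoderm before a germ disc appears, and the zygotic genome is switched on in early development, as in other animals.

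The deposited lists differed strongly in length. Stage 1 replicate 1 held 24066 peaks, stage 1 replicate 2 held 137892, stage 2 replicate 1 held 51893 and stage 2 replicate 2 held 23985. The 2 shortest lists were thus of different stages. Each list was therefore reduced to its 23985 peaks with the highest signal, the area that the peak caller sums along a peak. This kept 99.7% of the peaks of stage 1 replicate 1, 17.4% of stage 1 replicate 2, 46.2% of stage 2 replicate 1 and all of stage 2 replicate 2. The lowest signal kept and the highest left out were 200.426 and 200.421 in stage 1 replicate 1, 423.779 and 423.760 in stage 1 replicate 2, and 298.930 and 298.927 in stage 2 replicate 1. The same counts were made with the 5000 and the 2000 strongest peaks of each list. The depth of the libraries is unknown from these lists. The signal is not scaled between libraries, and below it is read as a percentile, the share of the kept peaks of a library with a signal no higher than that of the peak.

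The first question was which regions were open at 1 stage only. Peaks of the 4 equal lists that overlapped by at least 1 bp were merged into 69976 regions. Most of these regions, 53757 or 76.8%, had a peak in a single library. A further 10028 (14.3%) had a peak in 2 libraries, 3926 (5.61%) in 3 libraries and 2265 (3.24%) in all 4. Regions with a peak in both stage-1 libraries and in neither stage-2 library numbered 1154, which was 1.65% of all regions, and those with the reverse pattern, called stage-2-only regions, numbered 2102 or 3.0%. Agreement between replicates was therefore rarer than a peak seen in 1 library alone.

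Pairs of libraries from different stages gave similar or higher counts. Stage 1 replicate 1 and stage 2 replicate 2 alone shared 2495 regions, more than either stage-only class. Stage 1 replicate 1 and stage 2 replicate 1 alone shared 2090. The pairs that contained stage 1 replicate 2 were the smallest, with 1154 regions shared with stage 2 replicate 2 and 1033 with stage 2 replicate 1. The count of stage-1-only regions equalled that of the mixed pair of stage 1 replicate 2 with stage 2 replicate 2. The order of the stage-only classes held at the shorter lengths. With 5000 peaks per list there were 205 stage-1-only regions (1.54%), 375 stage-2-only regions (2.81%) and 843 regions with a peak in all 4 libraries (6.32%). With 2000 peaks these numbers were 91 (1.89%), 106 (2.2%) and 480 (9.96%). At both lengths the mixed pair of stage 1 replicate 1 and stage 2 replicate 2, with 629 and 257 regions, again exceeded both stage-only classes. With all deposited peaks both orders turned, with 3410 stage-1-only regions, 2342 stage-2-only regions and 1157 regions of this mixed pair. When 1 library was left out, a stage with a single library left needed only that library. Stage-1-only regions then numbered 17511 without stage 1 replicate 1, 13492 without stage 1 replicate 2 and 1991 without stage 2 replicate 2. Stage-2-only regions numbered 4119 without stage 1 replicate 1, 14416 without stage 2 replicate 1 and 15177 without stage 2 replicate 2. Regions with a peak in every library left numbered 4290 without stage 1 replicate 2.

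**Figure D1:**
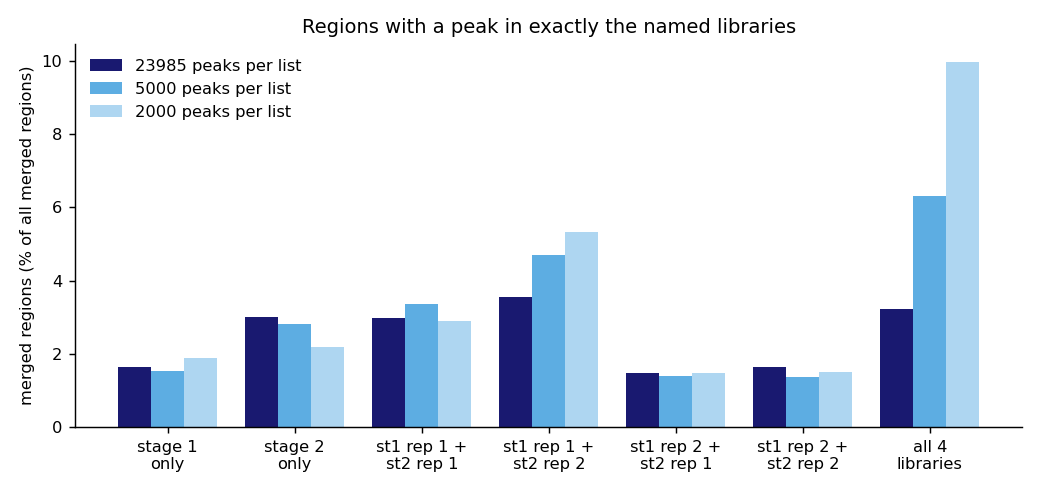
Merged regions with a peak in exactly the named libraries and in none of the others, as a percentage of all merged regions, for lists of 23985, 5000 and 2000 peaks. Bars are single counts with no error; at each length the mixed pair of stage 1 replicate 1 and stage 2 replicate 2 stands above both stage-only classes, and the share of regions with a peak in all 4 libraries grows from 3.24% to 9.96% as the lists get shorter.

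The second question was whether replicates of a stage resembled each other more than libraries of different stages. With 23985 peaks per list, the stage-1 replicates held 20.5% of their peaks in common and the stage-2 replicates 29.3%. Between stages, stage 1 replicate 1 shared 29.6% with stage 2 replicate 1 and 32.6% with stage 2 replicate 2, whereas stage 1 replicate 2 shared 18.5% and 20.2% with these libraries. The closest pair was thus one of different stages, and every pair with stage 1 replicate 2 lay below every pair without it, which also held with 5000 peaks but not with 2000, where the stage-1 replicates shared 41.1% and the stage-2 replicates 40.7%. The mean within stages was 24.9% and the mean between stages 25.2%, a difference of -0.313 percentage points (p = 0.667, exact permutation test over the 3 ways to pair the libraries, one-sided). The smallest p that 3 pairings allow is 0.333. The difference was -1.37 points with 5000 peaks and -1.92 points with 2000 peaks (p = 1 for both, exact permutation test, one-sided). It turned to 0.766 points with all deposited peaks and to 9.97 points without stage 1 replicate 1.

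**Figure D2:**
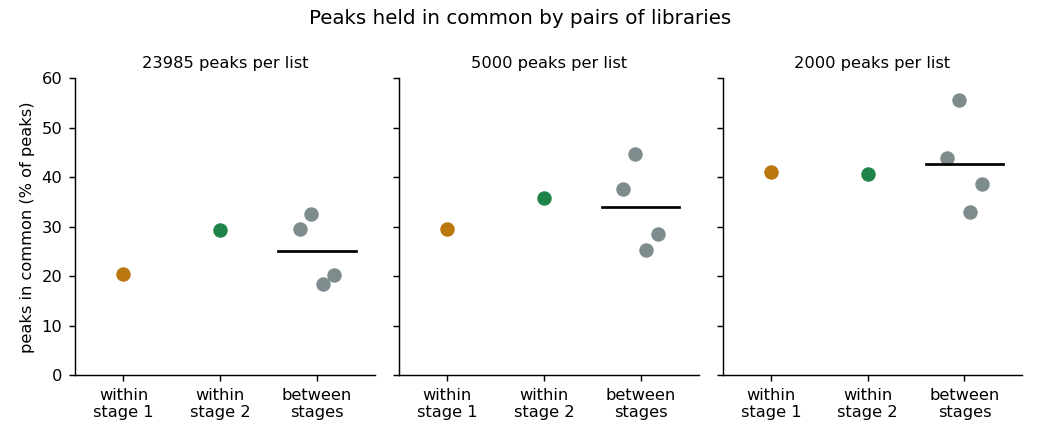
Percentage of peaks that overlap a peak of the other library, averaged over both directions, for the 6 pairs of libraries at 3 list lengths. Each point is a pair of libraries and the bar is the mean of the 4 pairs between stages; the points within stages (20.5% and 29.3% at the longest length) lie inside the range of the pairs between stages (18.5% to 32.6%).

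How often a peak recurred depended on its rank. Of the 100 strongest peaks, 99% in both stage-1 libraries and 100% in both stage-2 libraries fell in regions with a peak in all 4 libraries. For ranks 101 to 1000 this share was 77.2%, 65.3%, 65.0% and 77.8% in stage 1 replicates 1 and 2 and stage 2 replicates 1 and 2, in this order. Stage 1 replicate 1 again lay close to stage 2 replicate 2. Past rank 10000 the shares were 2.42% to 3.99%, and 65.4% to 77.1% of those peaks had no counterpart in any other library. Stage 1 replicate 2 departed from the other libraries at middle ranks. Of its peaks at ranks 1001 to 5000, 50.4% were in no other list, against 20.3%, 25.8% and 21.1% in stage 1 replicate 1 and stage 2 replicates 1 and 2. This library was also the one in which 70.1% of all deposited peaks carried the same summit p-value, against 29.1% to 38.8% in the other 3 libraries, and the part of this in the result was not tested.

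**Figure D3:**
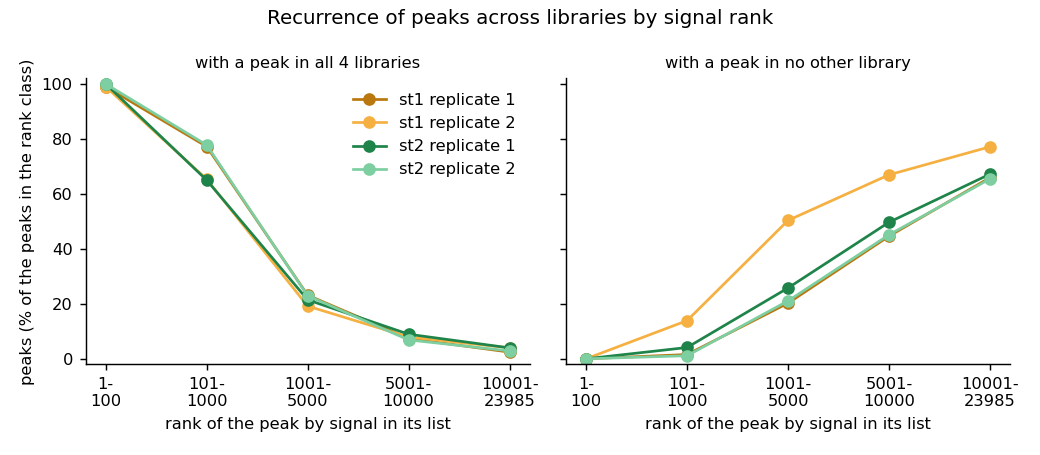
Share of the peaks of each library, by their rank in signal (classes on the horizontal axis, strongest at the left), that lie in regions with a peak in all 4 libraries (left) or in no other library (right). Each line is a library; the lines meet at 99% to 100% on the left for the 100 strongest peaks, and stage 1 replicate 2 lies above the other libraries in the right panel, at 50.4% for ranks 1001 to 5000.

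The 2265 regions with a peak in all 4 libraries, called shared regions, lay on 564 scaffolds of the assembly Ptep_2.0. Their median width was 875 bp, but a merged region spans the peaks of all its libraries. The strongest peaks inside them had medians of 475 to 612 bp per library. Of the shared regions, 94.7% had a mean percentile of at least 50. The shared regions held 10.0% to 10.6% of the peaks of a library but 17.8% to 25.3% of its signal. The summits of a shared region lay close together, at a median distance of 62 bp between stage 1 replicate 1 and stage 2 replicate 2 and of 68 to 85 bp in the other pairs. Across these 2265 regions, Spearman's rho of the signal was highest for the same pair, 0.687, and was 0.585 between the stage-1 replicates and 0.498 between the stage-2 replicates. These are descriptions across regions, which are not independent replicates.

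The strongest shared region was the same in every library. It lay at NW_018376755.1:35926-39945, with signals of 33187 and 36215 at stage 1 and of 31470 and 31331 at stage 2, and its peaks were 3879 to 4020 bp wide. It was first by signal in all 4 lists. The region at NW_018374349.1:6332-9355 was the second in all 4, with signals of 26365, 29487, 25110 and 26254 in stage 1 replicates 1 and 2 and stage 2 replicates 1 and 2. The region at NW_018372208.1:2390-5417 was the third in all 4, with 21299, 22918, 17906 and 22243. The order of these 3 regions therefore did not differ between stages or between replicates. Next by mean percentile, at 99.98 each, were regions whose place differed between the lists. The one at NW_018369057.1:24541-25741 had signals of 12102, 13739, 12511 and 10407. The other, at NW_018380111.1:10592-13180, had signals of 11950, 12978, 13297 and 12837. In both, the signals of the stages overlapped, although signals are not scaled between libraries. All 5 regions also had a peak in all 6 stage-3 lists.

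The stage-1-only regions were of middling signal. Their median mean percentile was 49.7, against 83.6 in the shared regions. The mixed pairs of libraries from different stages had medians of 49.5 to 53.4, so this level was not particular to stage 1. The strongest stage-1-only region lay at NW_018368786.1:197787-198768, with signals of 920 and 1398 at stage 1 (percentiles of 96.2 and 97.9) and peaks of 820 and 832 bp. No peak was found there in the full lists of stage 2 or in any of the 6 stage-3 lists. It was the only 1 of the 5 strongest with this pattern. The second, at NW_018384099.1:2725788-2727777, had signals of 841 and 1308, but the full list of stage 2 replicate 1 held a peak there with a signal of 278 at rank 27856. Of the 6 stage-3 lists, 3 had a peak there, 1 of them wild-type. The third, at NW_018380046.1:22565-23305, had signals of 664 and 1192 and no peak in the full stage-2 lists. A peak was found in 1 of the 2 wild-type stage-3 lists and in 4 of all 6 stage-3 lists. The fourth, at NW_018379764.1:2645447-2646293, had signals of 776 and 966, no peak in the full stage-2 lists and none at wild-type stage 3. After pRNAi, 2 of the stage-3 lists had a peak there. The fifth, at NW_018371019.1:7983688-7984815, had signals of 631 and 1127, and the full list of stage 2 replicate 1 held a peak with a signal of 285.5 at rank 26359. All 6 stage-3 lists had a peak there. The percentiles of the 5 regions lay between 91.6 and 97.9 in both replicates.

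The stage-2-only regions were of similar rank, with a median mean percentile of 51.8. The strongest lay at NW_018383342.1:301297-303049, with signals of 1061 and 1402 at stage 2 (percentiles of 95.5 and 98.3). The full list of stage 1 replicate 2 held 3 peaks there, the strongest with a signal of 234 at rank 103217 of 137892. The second, at NW_018377500.1:5380568-5381139, had signals of 1455 and 712 at stage 2, and the full list of stage 1 replicate 2 held a peak with a signal of 395 at rank 29882. The third, at NW_018383768.1:273510-274446, had signals of 917 and 1343, and the fourth, at NW_018379283.1:11760036-11761074, had signals of 1224 and 724. Neither had a peak in the full stage-1 lists, the longest of the lists included, and both had a peak in 5 of the 6 stage-3 lists. The fifth, at NW_018377318.1:4216565-4217665, had signals of 1283 and 694, and the full list of stage 1 replicate 2 held 2 peaks there, the stronger with a signal of 318 at rank 50980. In stage 1 replicate 1 no peak was found at any of the 5 regions.

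Absence from a reduced list was often not absence from the deposited list. Of the 1154 stage-1-only regions, 947 (82.1%) had no peak in the full stage-2 lists. Of the 2102 stage-2-only regions, 1347 (64.1%) had none in the full stage-1 lists, and 35.8% had a peak in the full list of stage 1 replicate 2 against 0.333% in that of stage 1 replicate 1. Stage 1 replicate 2 was the longest list, while stage 1 replicate 1 lost only 81 peaks by the reduction. Most of the regions found at the shorter lengths had a peak of the other stage at lower ranks. With 5000 peaks per list, 42 of 205 stage-1-only regions (20.5%) and 108 of 375 stage-2-only regions (28.8%) still lacked the other stage in the lists of 23985 peaks. With 2000 peaks, these numbers were 5 of 91 (5.49%) and 13 of 106 (12.3%). In the full lists, 4 of the 91 and 6 of the 106 were left.

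In lists of equal length, median peak widths were higher at stage 1 than at stage 2. The median width was 499 and 552 bp in the stage-1 replicates and 373 and 431 bp in the stage-2 replicates, so the groups did not overlap. The difference between the stage means of these medians, stage 2 minus stage 1, was -123.5 bp (p = 0.333, exact permutation test, two-sided, the smallest p that 2 against 2 libraries allow). The difference was -136.75 bp with 5000 peaks and -135.5 bp with 2000 peaks, again with no overlap. With all deposited peaks the medians were 498 and 355 bp at stage 1 and 288 and 431 bp at stage 2, which overlapped (p = 0.667, exact permutation test, two-sided). Within the shared regions, where the same sites were measured in each library, the medians were 612 and 583 bp at stage 1 and 475 and 571 bp at stage 2. Stage 2 replicate 2 lay close to stage 1 replicate 2, and with 5000 peaks (754, 692, 611 and 718 bp) and with 2000 peaks (849, 784, 702.5 and 844 bp) the stages overlapped. The narrow peaks of stage 2 replicate 1 were seen at every length. As merged regions, which span the peaks of both libraries, stage-1-only regions had a median width of 776 bp and stage-2-only regions of 554 bp. The mixed pairs of libraries from different stages had medians of 599 to 706 bp, the highest with stage 1 replicate 2. The strongest peaks had medians of 539.5 and 564.5 bp in the stage-1-only regions and of 376 and 453 bp in the stage-2-only regions.

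**Figure D4:**
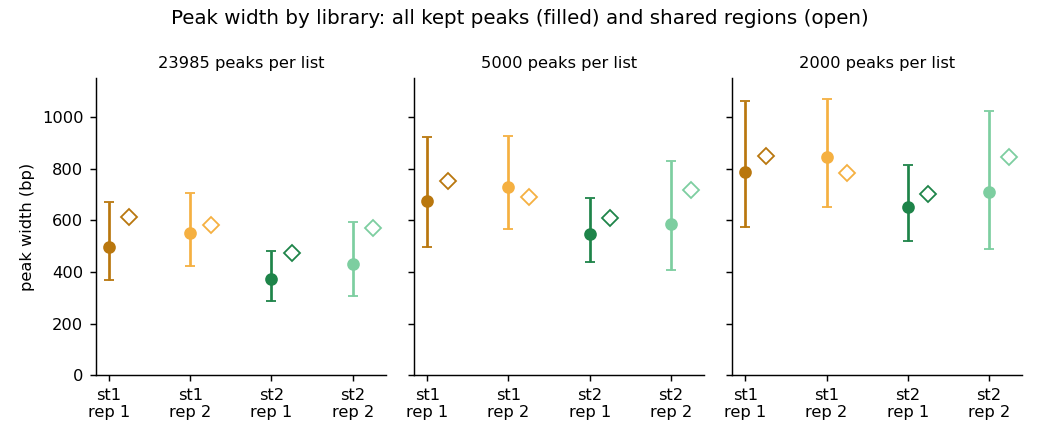
Width of the kept peaks in each library at 3 list lengths, as the median (filled points) with the quartiles (bars), and the median width of the strongest peak in the regions shared by all 4 libraries (open points), in bp. At the longest length the filled points of stage 1 (499 and 552 bp) lie above those of stage 2 (373 and 431 bp), while at the shorter lengths the open points of the stages overlap.

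The third question was whether shared regions changed in rank or width. The signal ranks of the 2265 shared regions were turned into normal scores within each library and compared with limma. No region passed an adjusted p of 0.05 in either direction (0.0% of the regions higher and 0.0% lower at stage 2), and 87 regions had an unadjusted p below 0.05, 39 of them higher and 48 lower at stage 2. In 332 regions (14.7%) both stage-2 scores lay above both stage-1 scores, and in 352 (15.5%) both lay below. The median absolute difference was 0.37 score units. The counts with adjusted p below 0.05 were also 0 with 5000 and with 2000 peaks per list, where 40 of 843 and 26 of 480 regions had an unadjusted p below 0.05. Without overlap between the stages were 145 regions higher (17.2%) and 128 lower (15.2%) at stage 2 with 5000 peaks, and 79 (16.5%) and 80 (16.7%) with 2000 peaks.

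The regions with the smallest p of this fit had stage values that did not overlap but an adjusted p of 1 (limma, Benjamini-Hochberg). At NW_018382568.1:3538313-3539036 the percentiles were 36.5 and 12.4 at stage 1 and 96.0 and 92.9 at stage 2, a score difference of 2.03 ± 0.42 (SE). At NW_018370506.1:8137744-8138854 they were 13.9 and 33.0 at stage 1 and 94.9 and 95.0 at stage 2. At NW_018377222.1:622-1936 they were 46.0 and 69.4 against 98.8 and 98.4. All 3 stood at a percentile of 92.9 or more at stage 2. At NW_018370960.1:612822-614366 the percentiles were 49.4 and 58.1 against 97.0 and 97.9, and at NW_018369190.1:303475-304081 they were 69.2 and 43.5 against 97.0 and 96.3. In the other direction, the region at NW_018383888.1:10774639-10775305 had percentiles of 94.5 and 58.7 at stage 1 and of 2.33 and 6.64 at stage 2, a score difference of -2.24 ± 0.49 (SE). It was the only 1 of these 10 regions without a peak in the wild-type stage-3 lists. At NW_018370506.1:6964357-6965098 the percentiles were 87.2 and 93.9 against 16.5 and 25.3. At NW_018374904.1:1178840-1180438 they were 94.2 and 87.9 against 1.71 and 36.0. At NW_018368786.1:492509-493286 they were 91.8 and 97.1 against 22.5 and 42.4, and at NW_018378837.1:599071-599642 they were 88.5 and 82.4 against 14.3 and 30.1. These 10 regions were picked by this fit, so their differences are a description.

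The width of the strongest peak in each shared region was compared on the log2 scale after centring each library on its median. No region passed an adjusted p of 0.05 in limma (0.0% in either direction), and 103 had an unadjusted p below 0.05. Both stage-2 values lay above both stage-1 values in 486 regions (21.5%) and below in 286 (12.6%), and in 147 (17.4%) and 105 (12.5%) of 843 regions with 5000 peaks and 64 (13.3%) and 56 (11.7%) of 480 regions with 2000 peaks. Without centring, an alternative chosen after the data were seen, the median log2 difference was -0.13 and the split turned to 170 regions (7.51%) above and 540 (23.8%) below, so the direction of these counts depended on the scaling. Without stage 1 replicate 1, 1 region passed the adjusted p, in a fit that assumes that the lone stage-1 library varies like those of stage 2.

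Among the regions with the smallest p for width, the one at NW_018370506.1:8137744-8138854 was also named by the rank fit. Its peaks were 274 and 272 bp wide at stage 1 and 720 and 926 bp at stage 2, a log2 difference of 1.78 ± 0.30 (SE; limma, adjusted p = 0.888). At NW_018373501.1:45156-46308 the widths were 310 and 276 bp against 730 and 1145 bp, and at NW_018373202.1:1310528-1311957 they were 259 and 246 bp against 557 and 1311 bp. These were sites with a short peak at stage 1 and a broad one at stage 2. In the other direction, the peaks at NW_018373819.1:43483-45805 were 2323 and 1791 bp wide at stage 1 and 346 and 618 bp at stage 2. At NW_018382128.1:133932-134654 they were 723 and 719 bp against 206 and 212 bp, with percentiles between 98.8 and 99.8 in all 4 libraries. At NW_018379622.1:1515014-1516105 they were 997 and 820 bp against 228 and 302 bp. All 6 regions kept their direction without centring.

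Gene positions on this assembly were taken from the study's table of peaks that responded to *fuchi* pRNAi at stage 3, which placed 201 genes. These genes were thus chosen by the study for peaks of a later stage and are no sample of all genes. Within 1 kb of their spans lay 1387 regions. Of these, 47 (3.39%) were shared by all 4 libraries, 32 (2.31%) were stage-1-only and 67 (4.83%) were stage-2-only, beside 3.24%, 1.65% and 3.0% of all 69976 regions. No test was made of these shares. Of the 201 genes, 37 had a shared region, 24 a stage-1-only region and 43 a stage-2-only region. None of the regions named above lay at a placed gene.

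Among placed genes of the hedgehog pathway were *Pt-hh* (LOC107451809), which encodes the secreted Hedgehog ligand, and a *patched*-like gene (LOC107440240), whose product is the Hedgehog receptor. The *Pt-hh* span of 63.7 kb held 12 regions, and 2 of them were shared. At NW_018380730.1:87029-87899 the percentiles were 89.6 and 96.5 at stage 1 and 96.0 and 88.0 at stage 2, and at NW_018380730.1:118949-119721 they were 95.8 and 98.3 against 97.7 and 74.7. In both, the stages overlapped, and neither gene had a stage-only region. The *patched*-like gene had 10 regions and no shared one. Its strongest region with a peak in several libraries, at NW_018382990.1:1231106-1231613, had percentiles of 85.8 in stage 1 replicate 1 and of 93.4 and 84.3 at stage 2, with no peak in stage 1 replicate 2. *Pt-GATA5* (LOC107456131, annotated as a GATA-4 transcription factor) had 7 regions, of which none was shared or stage-only. The region near it, at NW_018368052.1:1354042-1354455, had low percentiles of 38.3 in stage 1 replicate 1 and of 52.9 and 0.529 at stage 2.

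The 5 placed homeobox genes, which encode DNA-binding developmental regulators, included 4 with a shared region, 2 with a stage-1-only region and 3 with a stage-2-only region. Of all placed genes, 18.4%, 11.9% and 21.4% had such regions. These counts were not scaled by span, which was 48.1 to 284 kb in the homeobox genes, and no test was made. The *Meis2* gene (LOC107439560), whose relatives in other animals are partners of Hox proteins, spanned 284 kb and had the most regions of these, with 25 and 23 in the stage-1 libraries and 20 in each stage-2 library. Among its 51 regions were 1 shared, 4 stage-1-only and 2 stage-2-only regions. Of all merged regions, 3.24% were shared, 1.65% stage-1-only and 3.0% stage-2-only. The shared region at NW_018376796.1:5134483-5135200 had percentiles of 98.1 and 89.4 at stage 1 and of 98.8 and 94.5 at stage 2. The 4 stage-1-only regions of *Meis2* had mean percentiles of 25.0, 57.6, 57.7 and 60.4, and none had a peak in the wild-type stage-3 lists. Of the 2 stage-2-only regions, with mean percentiles of 36.0 and 64.9, each had a peak in 1 of these lists. The *Meis1* gene (LOC107450063) had 13 regions, with no shared region and 1 stage-2-only region, which had a mean percentile of 27.7. The *Hox-B4*-like gene (LOC107450665), of the family that patterns the body axis, had 10 regions. Its strong shared region at NW_018374002.1:2814400-2815658 had percentiles of 98.4 and 96.4 at stage 1 and of 96.6 and 93.9 at stage 2, where the stages overlapped. The *six1b* gene (LOC107455071) had 5 regions. Its shared region at NW_018376001.1:1537999-1538684 had percentiles of 27.5 and 69.0 against 73.9 and 87.0, which did not overlap. A gene for a zinc finger E-box-binding homeobox protein (LOC107446990), known in vertebrates as a transcriptional repressor, had 1 shared, 2 stage-1-only and 1 stage-2-only region among 17.

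Of the 5 placed zinc finger genes, which count the E-box-binding one again, 3 had a shared region, 1 a stage-1-only region and 4 a stage-2-only region. Of all placed genes, these shares were 18.4%, 11.9% and 21.4%, again not scaled by span. The *ush*-like gene (LOC107440842), related to a *Drosophila* cofactor of GATA factors, had 8 regions. Its strong shared region at NW_018369952.1:430468-431759 had percentiles of 95.6 and 95.9 at stage 1 and of 99.1 and 94.1 at stage 2. It also had a weak stage-2-only region with a mean percentile of 17.3. Among 27 regions, the gene for zinc finger protein 423 (LOC107440157) had 2 shared and 2 stage-2-only regions, the latter with mean percentiles of 23.3 and 23.7. The *TBX20*-like T-box gene (LOC107436847), a transcription factor gene, had 2 shared regions among 17. The stronger, at NW_018369480.1:175352-176329, had percentiles of 94.0 and 92.0 against 99.2 and 90.3. The stage-2-only region of this gene, at NW_018369480.1:182213-182707, had percentiles of 72.0 and 82.5, and each wild-type stage-3 list held a peak there. The *Wnt-16*-like gene (LOC107457243), which encodes a secreted signal, had 1 shared and 1 stage-2-only region among 7. The 1 placed ribosomal protein gene, for L7a (LOC107451683), had 3 regions, all of stage 2 replicate 2 alone. Stage-only regions at the genes of these lists had mean percentiles between 17.3 and 77.3. The library with the highest percentile differed between the shared regions given. It was stage 2 replicate 1 for *Meis2*, the *ush*-like and the *TBX20*-like gene. It was stage 1 replicate 2 for both *Pt-hh* regions, stage 1 replicate 1 for the *Hox-B4*-like gene and stage 2 replicate 2 for *six1b*.

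The stage-3 lists, which had no part in forming the regions, were read at their full lengths as a further measure. Of the shared regions, 87.2% and 84.9% had a peak in wild-type stage 3 replicates 1 and 2 (86.0% ± 1.56, SD, n = 2). Of the stage-2-only regions, 49.8% and 37.2% had one (43.5% ± 8.91, SD, n = 2). Of the stage-1-only regions, 24.9% and 14.7% had one (19.8% ± 7.17, SD, n = 2). The stage-2-only regions thus recurred at stage 3 more often than the stage-1-only regions in both libraries, and the values did not overlap. The order was the same with 5000 peaks per list (79.7% ± 5.28 and 53.9% ± 9.31, SD, n = 2) and with 2000 peaks (88.7% ± 1.33 and 70.9% ± 3.89, SD, n = 2). The full wild-type lists differ in length. With both reduced to 12494 peaks, the shared regions gave 78.1% and 84.9% in replicates 1 and 2. The stage-2-only regions then gave 37.9% and 37.2%, and the stage-1-only regions 17.1% and 14.7%. The order of the classes held, and the replicates lay closer together in the stage-only classes. For the shared regions the replicate with the higher share changed. With 2 stage-3 libraries no test was made.

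The same readout, again of the full stage-3 lists, varied between single libraries. Regions with a peak in stage 1 replicate 2 alone recurred at stage 3 in 4.43% and 2.59% of cases, against 12.4% and 6.63% for stage 1 replicate 1 alone, 17.2% and 9.63% for stage 2 replicate 1 alone and 12.3% and 7.24% for stage 2 replicate 2 alone. Stage 1 replicate 2 was the lowest, and stage 1 replicate 1 lay close to stage 2 replicate 2. The mixed pair of stage 1 replicate 1 and stage 2 replicate 1 recurred in 51.8% and 35.0% of cases, about as often as the stage-2-only regions. The mixed pair of stage 1 replicate 2 and stage 2 replicate 2 recurred in 24.9% and 18.8%, and so lay near the stage-1-only regions. The mixed pairs of stage 1 replicate 1 with stage 2 replicate 2 (31.5% and 23.6%) and of stage 1 replicate 2 with stage 2 replicate 1 (36.1% and 24.6%) lay between. Recurrence at stage 3 thus differed between libraries of the same stage and between the mixed pairs. A part of the stage itself cannot be told apart from that of the libraries. Without stage 1 replicate 1 the mean share was 4.66% for regions of the remaining stage-1 library alone, and 56.0% for the stage-2-only regions. Without stage 1 replicate 2 it was 10.4% for regions of the remaining stage-1 library alone. Without stage 2 replicate 1, or without stage 2 replicate 2, it was 32.5% or 30.4% for stage-1-only regions and 14.8% or 17.8% for regions of the remaining stage-2 library alone. With a library left out, 1 class needed 2 libraries and the other only 1. Among the patterns of all 4 libraries, regions of 1 library recurred less often (means of 3.51% to 13.4%) than regions of 2 (19.8% to 43.5%). The order of the classes with a library left out therefore cannot be read as a stage difference.

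**Figure D5:**
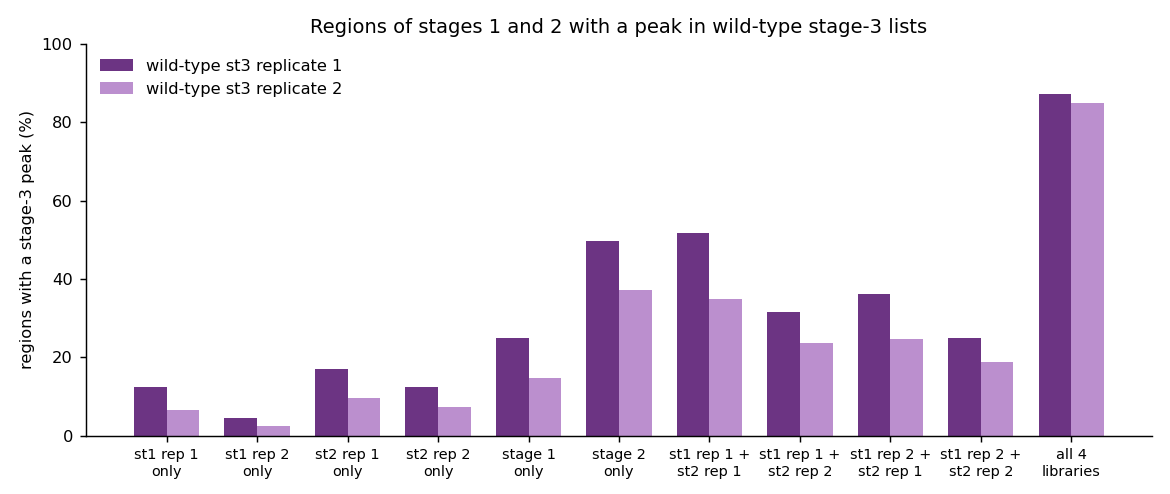
Percentage of the merged regions of stages 1 and 2 with a peak in the full list of wild-type stage 3 replicate 1 (dark) or replicate 2 (light), by the libraries in which the region had a peak. Shared regions stand highest (87.2% and 84.9%), and the stage-2-only regions (49.8% and 37.2%) stand at about the height of the mixed pair of stage 1 replicate 1 with stage 2 replicate 1 (51.8% and 35.0%).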

How the data were processed

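Reads were trimmed by the authors (Trim Galore!), mapped to Ptep_2.0 (Bowtie2 2.2.5) and cleared of duplicates, and peaks were called per library with Genrich, version 0.6 in the submitters' processing notes (the methods write the version differently). How the caller placed transposase cuts was set by the authors. The deposited signal is the authors' area under the caller's significance curve, never below 200.0, and the deposited −log10 p-value belongs to the summit, whose distance from the start of the peak is the other column used. Peaks were ranked and merged with pandas 2.3.3, permutations were enumerated, and the fits used limma 3.58.1 in R 4.3.3 with Benjamini-Hochberg adjustment. The counting and the fits were tested on simulated data. Named regions were the 5 with the highest mean percentile in each class and the 5 (rank) or 3 (width) with the smallest p in each direction. The members, gene lists and tests were chosen with earlier results of these data known. Alternatives were other list lengths, ranking by p-value, 50% overlap, 200 bp windows around summits, absence from full lists, leaving out each library, a replicate block, log2 signal, an upper-half filter and total peak length. Columns 5 and 9 of the lists were not used. Gene spans came from 217 of 313 rows of the study's table, those whose stated centre lay within 10 bp of the peak midpoint, and 165 of the 201 genes placed were found in RefSeq's gene table for another assembly. Of the gene lists, histones, heat shock, forkhead, Sox, BMP pathway, Notch and Delta, cyclins, RNA polymerase II, mediator and transposon genes had 0 placed members.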

Additional observations from a re-analysis of the deposited data

How the results depend on the processing

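Of the results fixed for testing, those not named here kept their direction and their side of the threshold under the alternatives run, apart from 8 cases in which a named stage-only region gained or lost a library, as given for the full lists above or with 2000 peaks or ranking by p-value. List length set the counts and shares. Stage-1-only regions numbered 205 with 5000 peaks per list, 91 with 2000 and 3410 with all deposited peaks. Stage-2-only regions numbered 375 with 5000 and 106 with 2000, and 1347 when absence was taken from the full lists. Regions with a peak in all 4 libraries numbered 843, 480 and 3915 with 5000, 2000 and all deposited peaks. The mixed pair of stage 1 replicate 1 and stage 2 replicate 2, above both stage-only classes at the 3 equal lengths, lay below both with all deposited peaks, at 1157 regions. Fewer or more peaks entered each of these counts. With 5000 and 2000 peaks, the mean share of stage-1-only regions with a wild-type stage-3 peak was 53.9% and 70.9%, and that of stage-2-only regions was 79.7% and 88.7%, or 31.4% with all deposited peaks. The difference in shared peaks within and between stages turned to 0.766 points with all deposited peaks and to 9.97 points without stage 1 replicate 1; the cause was not tested.

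With each library left out in turn, stage-1-only regions ranged from 1723 to 17511, stage-2-only regions from 2602 to 15177 and regions with a peak in every library left from 2753 to 4290. The share difference ranged from -5.92 to 9.97 points. The share with a stage-3 peak ranged from 4.66% to 32.5% (stage 1 only) and from 14.8% to 56.0% (stage 2 only). In these ranges of the stage-only classes, a stage with a single library left needed only that library. Calls for width ranged from 0 to 1 and calls for rank stayed at 0.

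The replicate numbers were not stated to mark a shared batch. With the replicate block, limma called 0 regions for rank and 0 for width, with an unadjusted p below 0.05 in 76 and 111 regions, and the share difference had p = 1 over 2 pairings (exact permutation test, one-sided). No fit with 1 library per stage has a replicate check. Location and sequence of the regions were not analysed here, so the promoter-window alternative was not run. Lists of peaks hold no counts, and counting error could not be measured.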

Other observations

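The shared regions and both stage-only classes were also read in the 4 stage-3 libraries after pRNAi, which were used above only for single named regions. Of the 2265 shared regions, 87.6% and 88.2% had a peak in the *fuchi* pRNAi lists and 90.8% and 90.2% in the *Pt-hh* pRNAi lists. Of the stage-2-only regions, 35.3% and 41.1% had a peak after *fuchi* pRNAi and 55.1% and 51.1% after *Pt-hh* pRNAi. Of the stage-1-only regions, these values were 12.3% and 16.4%, and 27.2% and 24.0%. The lists differ in length, and when each was reduced to the 10616 strongest peaks the shares for the stage-2-only regions were 35.3% and 34.1% after *fuchi* pRNAi and 33.4% and 34.8% after *Pt-hh* pRNAi. At that length the shared regions gave 87.6% and 83.8% after *fuchi* pRNAi and 75.8% and 78.2% after *Pt-hh* pRNAi, so that the order of the groups turned. The wild-type stage-3 replicates gave 74.9% and 82.8% at the same length, with both *Pt-hh* values between them. The stage-1-only regions gave 12.3% and 12.7% after *fuchi* pRNAi, and 14.0% and 12.6% after *Pt-hh* pRNAi. No difference between the pRNAi groups was tested.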
